A study of Homo sapiens with 16 samples.

Results

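The 10 genes described here are transcriptional outputs and feedback inhibitors of the RAS-ERK pathway, namely the phosphatases DUSP4, DUSP5 and DUSP6, the Sprouty and SPRED inhibitors SPRY2, SPRY4, SPRED1 and SPRED2, and the transcription factors ETV1, ETV4 and ETV5. They were found by gene symbol in the deposited table, where 10 of 10 were present among 39007 symbols. RNA was sequenced from 16 libraries of human T24 bladder cancer cells, 4 libraries each of the parental line (P0) and of its gemcitabine-resistant descendant GRC1 at P3 (the early phase), P7 (the intermediate one) and P15 (the late one). A phase is a round of gemcitabine exposure followed by regrowth of the surviving colonies, so that P3, P7 and P15 are successive steps of 1 line derived from the parental cells. T24 cells, P0 included, are known to carry an activating HRAS mutation. The library titles carry the mark NT, which the labels do not explain, and the sources used here do not state whether the 4 libraries of a phase came from separate cultures, so that p-values measure the spread between these libraries only.

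ERK is the last kinase of a cascade in which receptors activate RAS, RAS activates RAF, RAF activates MEK and MEK activates ERK. Active ERK drives the transcription of its own inhibitors. The DUSP proteins remove phosphate groups from MAP kinases, with DUSP5 acting on ERK in the nucleus and DUSP6 on ERK in the cytoplasm, while Sprouty proteins dampen signalling between receptor and RAF and SPRED proteins bring the RAS inhibitor neurofibromin to the membrane. ETV1, ETV4 and ETV5 form the PEA3 group of ETS transcription factors. Several of these genes are known targets of the repressor CIC, which binds octamers such as TGAATGGA and is released from DNA when ERK is active, and RNA levels of DUSP6, SPRY4 and the ETV genes are widely read as a measure of pathway output.

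Promoters of 4 of the genes are shown, DUSP6 and ETV1 because they hold the CIC octamer, SPRY2 because it holds an ETS core, and SPRY4, its relative, because it holds none of the motifs searched. The sequences are from RefSeq on GRCh38.p14, run from 250 bases before an annotated start to 30 bases after it, lie on the minus strand and are written 5′ to 3′. Capitals mark matches to the CIC octamer or to the ETS core CCGGAA. The windows are chr12:89352472-89352751 for DUSP6, chr7:13991396-13991675 for ETV1, chr13:80341097-80341376 for SPRY2 and chr5:142324218-142324497 for SPRY4.
DUSP6: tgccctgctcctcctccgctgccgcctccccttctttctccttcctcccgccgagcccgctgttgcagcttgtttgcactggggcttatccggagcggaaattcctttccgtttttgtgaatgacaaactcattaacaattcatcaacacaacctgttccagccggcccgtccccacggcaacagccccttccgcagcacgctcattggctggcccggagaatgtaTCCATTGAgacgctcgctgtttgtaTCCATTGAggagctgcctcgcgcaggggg
ETV1: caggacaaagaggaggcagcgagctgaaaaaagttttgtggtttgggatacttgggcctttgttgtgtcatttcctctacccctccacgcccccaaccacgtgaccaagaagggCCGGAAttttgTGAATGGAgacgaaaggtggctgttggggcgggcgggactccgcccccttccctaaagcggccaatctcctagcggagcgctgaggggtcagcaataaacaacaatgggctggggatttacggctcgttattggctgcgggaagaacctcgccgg
SPRY2: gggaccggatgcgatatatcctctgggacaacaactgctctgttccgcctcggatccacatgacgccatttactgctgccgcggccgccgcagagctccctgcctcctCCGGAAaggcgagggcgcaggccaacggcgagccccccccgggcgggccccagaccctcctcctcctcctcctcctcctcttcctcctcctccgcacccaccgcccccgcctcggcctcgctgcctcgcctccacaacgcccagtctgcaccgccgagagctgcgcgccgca
SPRY4: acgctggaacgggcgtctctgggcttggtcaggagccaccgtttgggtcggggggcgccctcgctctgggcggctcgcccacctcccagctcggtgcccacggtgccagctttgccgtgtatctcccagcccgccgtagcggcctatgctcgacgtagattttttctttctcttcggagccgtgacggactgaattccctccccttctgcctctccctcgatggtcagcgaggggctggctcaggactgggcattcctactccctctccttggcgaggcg

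The search covered both strands of the 300-base windows, which extend to 50 bases after the start, of 6 of the genes (DUSP6, SPRY2, SPRY4, SPRED1, SPRED2 and ETV1), 14 windows in all since ETV1 has 6 annotated starts, SPRY2 has 3 and SPRED2 has 2. DUSP6 held the CIC octamer at 2 places, from base -24 to base -17 and from base 2 to base 9, read on this strand as TCCATTGA. ETV1 held it in 1 of its 6 windows as TGAATGGA, from base -125 to base -118. Among all 35116 promoter windows of the same length, 3.77% held the CIC octamer, searched as TGAATGAA, TGAATGGA, TCAATGAA and TCAATGGA with their reverse complements. The ETS core was found in 3 of the 6 ETV1 windows and in 1 of the 3 SPRY2 windows, against 17.2% of all windows. In 2 of these 3 ETV1 windows, whose starts lie a few bases apart, it is the same genomic site. The AP-1 site (TGACTCA or TGAGTCA) was found in 1 SPRED2 window, against 4.95% of all windows, and the serum response core, CC and GG around a run of A or T, in none of the 14 windows, against 1.29%. None of these motifs overlapped another in the windows shown, and a match describes letters and not binding.

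The 10 genes did not move as a block. In early phase P3, the 3 DUSP and 2 Sprouty genes were higher than in parental phase P0, the 3 ETV genes were lower, and SPRED1 and SPRED2 did not pass the test. In late phase P15, DUSP5, SPRY2 and SPRY4 were 4.59-, 3.50- and 2.96-fold higher than in P0, whereas DUSP4 and SPRED1 were 3.83- and 2.14-fold lower. ETV5 and DUSP6 were 1.59- and 1.56-fold higher in P15, and ETV1 and ETV4 were near their parental level. Values throughout are log2(CPM + 1), where CPM is the count of a gene scaled to the total of its library, and fold changes are on that scale. Differences were tested with limma over the 13249 genes whose mean exceeded 1 CPM, p-values were adjusted by the Benjamini-Hochberg method, and a gene was called at an adjusted p below 0.05.

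**Figure D1:**
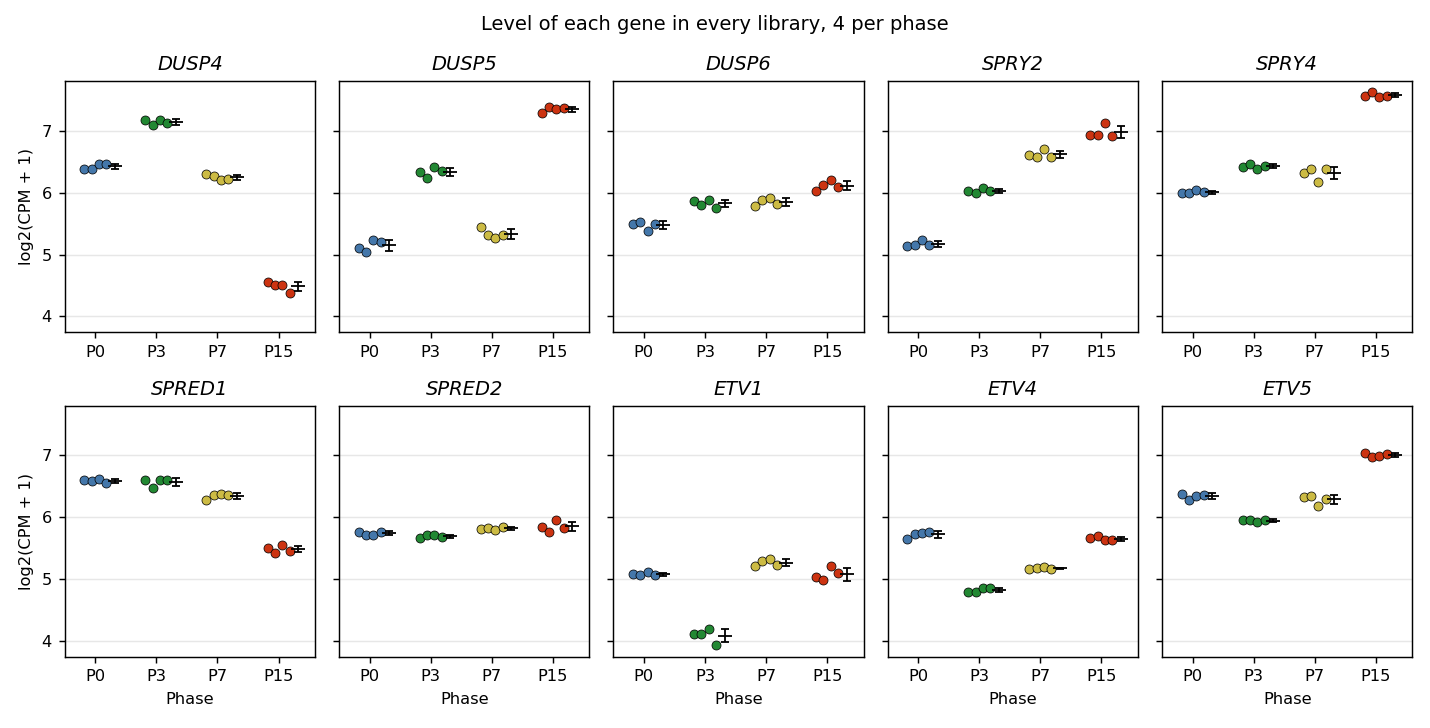
Level of each of the 10 genes as log2(CPM + 1) (vertical axis) in the phases P0 (parental), P3, P7 and P15 (horizontal axis), with each dot 1 library and the dash with bars the mean and SD of 4 libraries. DUSP5, SPRY2, SPRY4 and ETV5 are highest in P15, DUSP4 and SPRED1 are lowest there, ETV1, ETV4 and ETV5 are lowest in P3, and SPRED2 stays between 5.66 and 5.96.

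DUSP4, a nuclear phosphatase that acts on ERK and other MAP kinases, was 6.39, 6.39, 6.46 and 6.46 in the 4 libraries of P0, 7.18, 7.09, 7.17 and 7.13 at P3, 6.30, 6.27, 6.20 and 6.22 at P7, and 4.56, 4.5, 4.51 and 4.38 at P15. No library of a phase overlapped a library of another phase, and the order from low to high was P15, P7, P0 and P3. Its mean was 140.3 ± 4.0 CPM in P3 and 21.5 ± 1.2 CPM in P15 (SD, n = 4 libraries). DUSP4 rose from P0 to P3 by 0.72 (standard error from the fit, SE, 0.04, adjusted p = 9.8e-14), fell by 0.90 from P3 to P7 and fell by a further 1.76 from P7 to P15 (SE 0.04, adjusted p = 2.2e-22). The gene lies on chromosome 8 of GRCh38, from 29333064 to 29350684.

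DUSP5, the ERK phosphatase of the nucleus, was 5.11, 5.04, 5.24 and 5.20 at P0, 6.33, 6.24, 6.41 and 6.35 at P3, 5.44, 5.31, 5.26 and 5.31 at P7, and 7.28, 7.38, 7.35 and 7.37 at P15. It thus rose, fell back close to its parental level and rose again, with no overlap between neighbouring phases. The rise from P0 to P3 was 1.18 (SE 0.05, adjusted p = 1.8e-16), the fall from P3 to P7 was -1.0025 and the rise from P7 to P15 was 2.02 (SE 0.05, adjusted p = 4.4e-22). P7 remained above P0 by 0.18 (SE 0.05, adjusted p = 0.0018). DUSP5 (chromosome 10, 110497907 to 110511533) and DUSP4 shared their direction up to P7 and parted at P15. Within a library, DUSP5 minus DUSP4 lay between -1.35 and -0.76 on the log2 scale in P0, P3 and P7 and between 2.72 and 2.99 in P15.

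DUSP6, the ERK phosphatase of the cytoplasm, was 5.49, 5.52, 5.38 and 5.50 at P0, 5.86, 5.80, 5.88 and 5.76 at P3, 5.78, 5.88, 5.92 and 5.81 at P7, and 6.03, 6.12, 6.21 and 6.09 at P15. It increased in small steps, with the libraries of P3 and P7 overlapping. The rise was 0.35 from P0 to P3 (SE 0.04, adjusted p = 2.5e-07) and 0.64 from P0 to P15 (SE 0.04, adjusted p = 2e-12). Between P3 and P7 the difference was 0.02, with a 95% interval of -0.07 to 0.12 (adjusted p = 0.69). DUSP6 (chromosome 12, 89347235 to 89352501) is covered over 28.6% of its exon bases by an annotated gene on the opposite strand, and the strand setting of the counting is not given in the sources used here.

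SPRY2, a Sprouty inhibitor of receptor signalling, was 5.13, 5.16, 5.23 and 5.15 at P0, 6.02, 5.99, 6.08 and 6.03 at P3, 6.61, 6.57, 6.71 and 6.58 at P7, and 6.93, 6.94, 7.12 and 6.91 at P15. It was higher at each later phase, with no overlap between phases. The steps were 0.86 from P0 to P3 (SE 0.04, adjusted p = 1.8e-14), 0.59 from P3 to P7 (SE 0.04, adjusted p = 5.9e-11) and 0.36 from P7 to P15 (SE 0.04, adjusted p = 5e-08). In CPM, SPRY2 (chromosome 13, 80335976 to 80341126) went from 35.0 ± 1.1 in P0 to 64.4 ± 1.7, 97.3 ± 4.4 and 125.0 ± 8.8 (SD, n = 4 libraries).

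SPRY4, its relative with the same place in the pathway, was 5.99, 5.99, 6.04 and 6.01 at P0, 6.42, 6.47, 6.39 and 6.43 at P3, 6.32, 6.39, 6.17 and 6.38 at P7, and 7.56, 7.62, 7.54 and 7.57 at P15. Its libraries of P3 and P7 touched at 6.39, and those of P15 stood above the rest. SPRY4 rose by 0.42 from P0 to P3 (SE 0.04, adjusted p = 1.7e-09) and by 1.26 from P7 to P15 (SE 0.04, adjusted p = 1.8e-19). The fall from P3 to P7 was -0.11 (SE 0.04, adjusted p = 0.018), and it did not pass without replicate 2 of P3 (-0.10, adjusted p = 0.057) or without replicate 3 of P7 (-0.06, adjusted p = 0.12). SPRY4 lies on chromosome 5, from 142310427 to 142326455.

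SPRED1, which recruits neurofibromin to RAS at the membrane, was 6.6, 6.58, 6.62 and 6.55 at P0, 6.6, 6.48, 6.61 and 6.61 at P3, 6.28, 6.36, 6.38 and 6.36 at P7, and 5.50, 5.43, 5.56 and 5.46 at P15. P0 and P3 overlapped, P7 lay below both and P15 lay lowest. From P0 to P3 the difference was -0.01, with a 95% interval of -0.09 to 0.07 (adjusted p = 0.78). SPRED1 fell by 0.23 from P3 to P7 (SE 0.04, adjusted p = 1.7e-05) and by 0.86 from P7 to P15 (SE 0.04, adjusted p = 1.8e-16), from 80.3 ± 2.5 to 43.9 ± 1.8 CPM (SD, n = 4 libraries). The gene lies on chromosome 15, from 38252836 to 38357249.

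SPRED2, the relative of SPRED1 on chromosome 2 (65310851 to 65432637), had the flattest course of the 10 genes. Its lowest and highest libraries were 5.71 and 5.77 in P0, 5.66 and 5.72 in P3, 5.80 and 5.84 in P7, and 5.77 and 5.96 in P15. No step between neighbouring phases in the order of its levels passed the test, the differences being 0.05, 0.08 and 0.03. P15 was higher than P0 by 0.11 (SE 0.04, adjusted p = 0.011), and without replicate 3 of P15 the difference was 0.07 and did not pass (adjusted p = 0.062). P7 was higher than P3 by 0.13 (SE 0.04, adjusted p = 0.0068). Over the same interval SPRED1 fell by 1.10 from P0 to P15 (SE 0.04, adjusted p = 1.3e-18).

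ETV1, an ETS activator, was 5.09, 5.06, 5.11 and 5.06 at P0, 4.11, 4.12, 4.19 and 3.93 at P3, 5.21, 5.30, 5.33 and 5.23 at P7, and 5.03, 4.98, 5.22 and 5.10 at P15. The dip in P3 stood apart from the other 3 phases. It fell by 0.99 from P0 to P3 (SE 0.06, adjusted p = 1.6e-13) and rose by 1.18 from P3 to P7 (SE 0.06, adjusted p = 1.8e-14). P15 and P0 differed by 0.00, with a 95% interval of -0.11 to 0.12 (adjusted p = 0.97). P7 was the highest phase and exceeded P15 by 0.18 (SE 0.06, adjusted p = 0.0041), although 1 library of P15 lay within the range of P7. ETV1 lies on chromosome 7, from 13891229 to 13991425.

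ETV4 was 5.65, 5.73, 5.75 and 5.76 at P0, 4.80, 4.80, 4.86 and 4.86 at P3, 5.17, 5.18, 5.19 and 5.16 at P7, and 5.66, 5.70, 5.63 and 5.63 at P15. It dropped in P3 and climbed back over the later phases. The fall to P3 was -0.89 (SE 0.04, adjusted p = 7.5e-16), and the rises were 0.34 from P3 to P7 (SE 0.04, adjusted p = 5.2e-08) and 0.48 from P7 to P15 (SE 0.04, adjusted p = 2.2e-11). P15 and P0 overlapped and differed by -0.07, with a 95% interval of -0.15 to 0.01 (adjusted p = 0.10). This difference passed without replicate 1 of P0 (-0.09, adjusted p = 0.039). ETV4 lies on chromosome 17, from 43527844 to 43579620.

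ETV5 was 6.38, 6.28, 6.35 and 6.36 at P0, 5.96, 5.96, 5.92 and 5.95 at P3, 6.33, 6.34, 6.19 and 6.30 at P7, and 7.04, 6.98, 6.99 and 7.02 at P15. Like its relatives it was lowest in P3, and its libraries of P15 lay above those of P0 with no overlap. It fell by 0.40 from P0 to P3 (SE 0.04, adjusted p = 7.6e-10). It rose by 0.34 from P3 to P7 (SE 0.04, adjusted p = 1.8e-08) and by 0.72 from P7 to P15 (SE 0.04, adjusted p = 1.7e-15). P7 and P0 differed by -0.05, with a 95% interval of -0.13 to 0.02 (adjusted p = 0.2). ETV5 lies on chromosome 3, from 186046314 to 186110318, and shares 2.84% of its exon bases with DGKG, as ETV4 does 1.93% with DHX8 on the opposite strand.

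Counted over the 10 genes, the share that passed the test is to be read against that of all genes tested, most of which passed. Between P3 and P0, 8 of 10 passed against 68.7% of all tested genes, 5 of them higher (31.4% of all) and 3 lower (37.3%). Between P7 and P0, 8 passed against 62.1%, 5 higher (27.9%) and 3 lower (34.2%). Between P15 and P0, 8 passed against 86.2%, 6 higher (45.3%) and 2 lower (40.9%). These 3 comparisons share the P0 libraries.

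Between P7 and P3, 9 passed against 58.2% of all tested genes, 5 higher (30.3%) and 4 lower (28.0%). Between P15 and P7, 9 passed against 86.4%, 6 higher (46.3%) and 3 lower (40.1%). Between P15 and P3, 10 passed against 87.2%, 8 higher (46.1%) and 2 lower (41.1%). DUSP4 and SPRED1 were the 2 lower genes both in P15 against P0 and in P15 against P3.

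Changes of at least 2-fold were fewer. Between P15 and P0, 5 of 10 genes changed by at least 2-fold against 23.6% of all tested genes, with DUSP5, SPRY2 and SPRY4 higher (12.2% of all) and DUSP4 and SPRED1 lower (11.5%). Between P3 and P0, DUSP5 was higher (1.95%) and none of the 10 lower (2.51%), 1 gene against 4.47% in either direction. Between P7 and P0, SPRY2 was higher (1.86%) and none lower (1.52%), 1 gene against 3.37%. DUSP5 in the first and SPRY2 in the second comparison were thus the only genes of the set past this limit before P15 when compared with P0. Between P7 and P3, ETV1 was higher (0.996%) and DUSP5 lower (0.845%), 2 genes against 1.84%. Between P15 and P3 there were 5 against 27.1%, with 3 higher (15.0%) and 2 lower (12.2%), and between P15 and P7 there were 3 against 25.5%, with 2 higher (13.4%) and 1 lower (12.1%). The median absolute log2 difference of the 10 genes, set against that of all tested genes, was 0.57 against 0.23 for P3 and P0, 0.22 against 0.20 for P7 and P0, and 0.88 against 0.51 for P15 and P0. It was 0.34 against 0.18 for P7 and P3, 1.00 against 0.56 for P15 and P3, and 0.60 against 0.55 for P15 and P7.

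**Figure D2:**
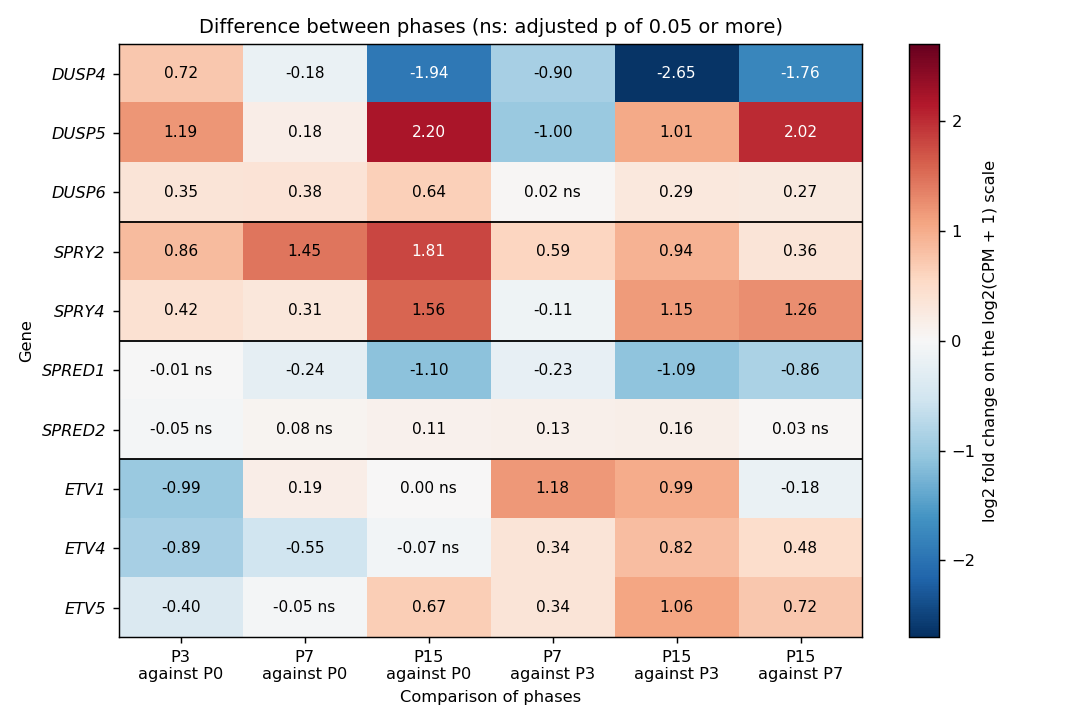
Log2 fold change of each gene (rows) in the 6 comparisons of phases (columns), on the log2(CPM + 1) scale, with red for higher and blue for lower in the first phase named and ns for an adjusted p of 0.05 or more (limma, 4 libraries per phase). In the column of P3 against P0 the 5 DUSP and Sprouty genes are red and the 3 ETV genes blue, and in that of P15 against P0 DUSP5 reaches 2.20 and DUSP4 -1.94.

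The range between the highest and the lowest phase mean was 2.66 for DUSP4, 2.20 for DUSP5, 1.81 for SPRY2 and 1.56 for SPRY4, larger than that of 94.2, 91.2, 87.0 and 83.2% of the tested genes. It was 1.18 for ETV1, 1.10 for SPRED1, 1.06 for ETV5 and 0.89 for ETV4. DUSP6 and SPRED2, with 0.64 and 0.16, ranged less than the median tested gene (0.74). Compared as CPM per kilobase of annotated exon, levels in P0 ran from 3.42 for ETV1 to 14.7 for ETV4. In P15, DUSP5 was highest with 63.8 CPM per kilobase and DUSP4 lowest with 2.95, and SPRY2 and SPRY4 followed DUSP5 with 38.9 and 28.9.

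Pearson r over the 16 libraries, which fall into the 4 phases and therefore mostly describes the course of the phase means, was used to find the tested gene most like each of the 10. This was LIMK2 for DUSP4 (r = 0.997), RAP1GAP2 for DUSP5 (0.995), IL1RAP for DUSP6 (0.975), KLF4 for SPRY2 (0.994) and CDCP1 for SPRY4 (0.996). It was ITGB8 for SPRED1 (0.995), RPH3AL for SPRED2 (0.894), EPS15L1 for ETV1 (0.970), KLHL9 for ETV4 (0.987) and TRIML2 for ETV5 (0.993). None of the 10 had another of them as its most like gene. Of 13226 genes compared, those with an r above 0.95 numbered 934 for SPRED1, 681 for SPRY4, 655 for ETV5, 654 for DUSP4 and 197 for DUSP5, and 75 for ETV4, 49 for SPRY2, 35 for DUSP6, 5 for ETV1 and 0 for SPRED2. Within the set, DUSP4 and SPRED1 had an r of 0.96 with each other, DUSP6 and SPRY2 0.94, and DUSP5 and SPRY4 0.93, while DUSP4 and ETV5 had -0.98.

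The rest of the pathway was read from 6 lists of 65 genes, of which 61 were tested. In the core cascade from GRB2 to ERK, 8 of 18 genes were higher and 8 lower in P15 than in P0, where 45.3% of all tested genes were higher and 40.9% lower, so that the share called was near the 86.2% of all genes. By at least 2-fold, 1 core gene changed, against 23.6% of all. This was the scaffold KSR2, which rose by 1.31 from a low level of 1.68 ± 0.26 (SD, n = 4 libraries). HRAS, the mutated RAS gene of T24, was 7.25 ± 0.04 at P0, 7.74 ± 0.03 at P3, 7.55 ± 0.06 at P7 and 6.43 ± 0.05 at P15, a fall by 0.81 from P0 to P15 (SE 0.03, adjusted p = 4.4e-17). MAPK3, which encodes an ERK kinase, was higher by 0.66 in P15 than in P0 (5.75 ± 0.01 to 6.41 ± 0.03).

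Among 11 tested upstream inhibitors of RAS and receptors, 7 were higher and 2 lower in P15 than in P0, 81.8% called against 86.2% of all tested genes (45.3% higher and 40.9% lower). ERRFI1, an inhibitor of the EGF receptor, went from 8.45 ± 0.07 to 10.71 ± 0.05 (log2 fold change 2.27, adjusted p = 4.9e-26), and the RAS GTPase activator RASA1 from 6.05 ± 0.01 to 7.66 ± 0.04 (1.6, adjusted p = 3.8e-22). Of 6 further MAP kinase phosphatases tested, 5 were higher and 1 lower in P15, each by at least 2-fold, against 12.2% of all tested genes higher and 11.5% lower by that much. DUSP1 was 5.63 ± 0.26 at P0, 8.24 ± 0.03 at P3, 6.36 ± 0.03 at P7 and 7.45 ± 0.08 at P15. DUSP8 rose by 2.13 from P0 to P15, from a low level of 1.11 ± 0.11 to 3.24 ± 0.20. Like DUSP5, DUSP1 rose in P3, fell in P7 and rose in P15.

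Of the further Sprouty and SPRED genes, SPRY1 rose from 0.35 ± 0.13 in P0 to 3.04 ± 0.12 in P15 and SPRY3 fell from 2.47 ± 0.12 to 1.34 ± 0.07 (log2 fold changes 2.69 and -1.12). Among 9 other ETS factors and parts of the CIC repressor, 5 were higher and 3 lower in P15 than in P0, 88.9% called against 86.2% of all tested genes. CIC itself was 6.49 ± 0.06 at P0, 6.34 ± 0.09 at P3, 6.43 ± 0.10 at P7 and 6.48 ± 0.12 at P15, lower in P3 than in P0 by 0.15 (SE 0.05, adjusted p = 0.018). Its cofactor ATXN1 fell from 4.28 ± 0.04 to 0.70 ± 0.16 (log2 fold change -3.58, adjusted p = 5.3e-23) and ETS1 from 8.83 ± 0.06 to 7.89 ± 0.08.

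Of 14 tested further ERK-responsive genes, 11 were higher and 3 lower in P3 than in P0, against 31.4% and 37.3% of all tested genes. In P15, 11 were higher and 3 lower than in P0, against 45.3% and 40.9%, and 12 of the 14 changed by at least 2-fold, against 23.6%. The list was chosen with earlier results of these data known, so that these shares describe it and do not test it. The lower genes were FOSB, MYC and TRIB2 in P3 and FOSL1, CCND1 and EPHA4 in P15, named here after their values were seen. The median log2 fold change of the 14 genes was 0.63 in P3 and 1.62 in P15, against -0.03 and 0.04 over all tested genes. The immediate early factor EGR1 was 2.39 ± 0.48 at P0, 5.63 ± 0.31 at P3, 3.36 ± 0.31 at P7 and 7.70 ± 0.47 at P15. IER3, an immediate early survival gene, was 7.83 ± 0.08, 8.0 ± 0.09, 7.41 ± 0.08 and 10.89 ± 0.14 in the same phases. Between P7 and P3, 10 of the 14 were lower and 2 higher, against 28.0% and 30.3% of all tested genes. RASAL1, DUSP2, EGR2 and EGR3 had a mean of 1 CPM or less and were not tested.

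**Figure D3:**
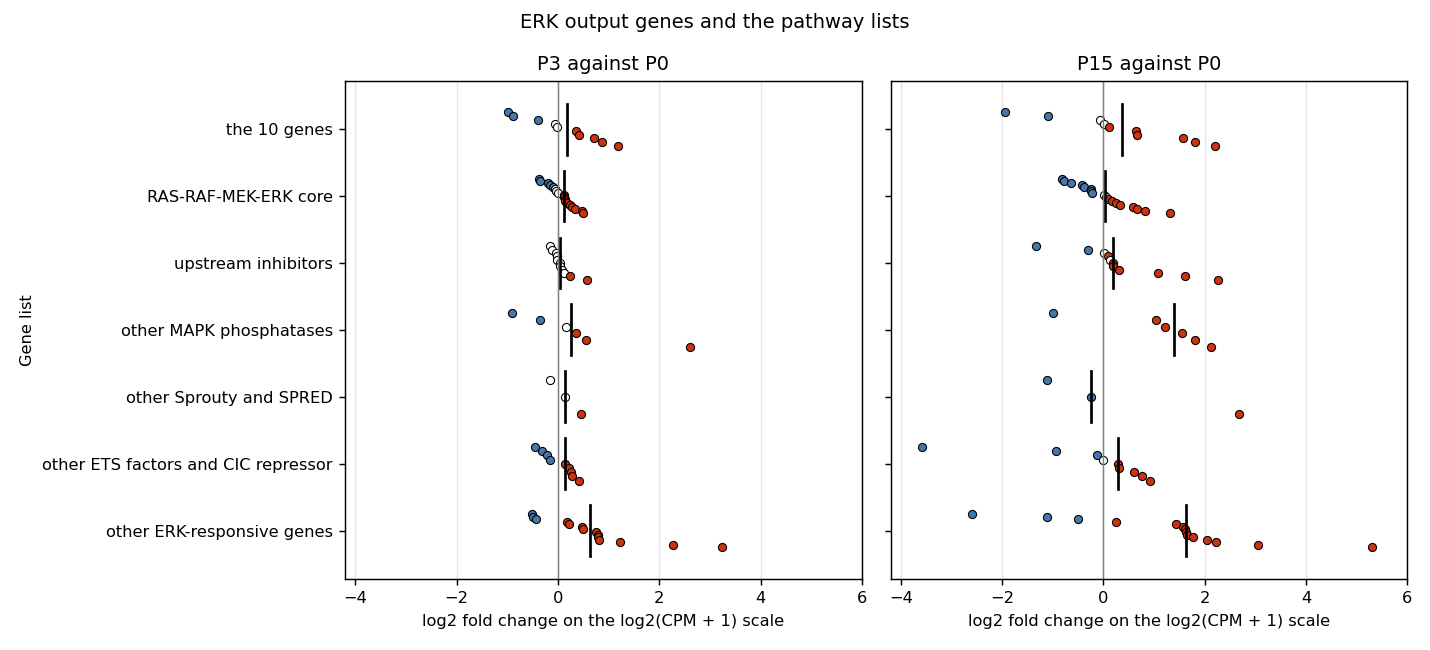
Log2 fold change on the log2(CPM + 1) scale (horizontal axis) of each tested gene of the 10 genes and of 6 pathway lists (vertical axis), for P3 against P0 on the left and P15 against P0 on the right. Red dots are higher and blue dots lower at an adjusted p below 0.05, white dots did not pass, and the vertical bar is the median of the list. The ERK-responsive genes have medians of 0.63 and 1.62, and KSR2 at 1.31 is the core gene farthest to the right in the right panel.

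The steps between the smallest values of a library put its total at 33750000 to 50000000 counts, which gave between 481 counts (ETV1 in replicate 4 of P3) and 8515 counts (SPRY4 in replicate 4 of P15) for a gene of the set and a counting error of at most 4.56%. The labelled cell type was read from 13 epithelial and urothelial markers, of which 8 had a mean above 1 CPM in P0 and 7 in P15. CDH1, UPK1B and UPK3A were at or under 0.1 CPM in each phase. The summed level of the list was 2207 to 2279 CPM in P0 and 697 to 775 CPM in P15. Further markers are named here after their values were seen. From P0 to P15 the mean fell from 957 to 11.5 CPM for KRT7, 593 to 70.3 for KRT8 and 85.1 to 0.01 for KRT19. GATA3, FOXA1, PPARG and EPCAM were also lower in P15. KRT18 rose from 471 to 633 CPM and UPK1A from 0.07 to 1.98 CPM. The summed level of 7 immune and endothelial markers was 12.1 to 16.4 CPM at P0, 2.18 to 2.7 at P3, 5.70 to 6.69 at P7 and 0.623 to 1.14 at P15, with PTPRC, CD3E and VWF at or under 0.1 CPM in each phase, and the part of either marker list in the results was not tested. A level in a culture cannot tell a change in the share of expressing cells from a change in RNA per cell.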

How the data were processed

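RNA-seq values of 16 libraries were used, 4 each of phases P0, P3, P7 and P15. The authors aligned reads to GRCh38 with STAR 2.6.1a (a version also listed in the submitters' processing notes), counted genes with featureCounts and deposited CPM on the log2 scale after adding 1, given to 2 decimals. Quantile normalization and centring on the median, also named in the study's methods, are not visible in the deposited values. The annotation release and the strand setting are not given in the sources used here. Groups come from the phase label.

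A linear model with a coefficient for each phase was fitted to the 16 libraries with limma 3.58.1 (R 4.3.3), using a variance trend, and p-values were adjusted by the Benjamini-Hochberg method over 13249 genes whose mean exceeded 1 CPM. The 10 genes passed this filter. Intervals are 95% intervals from this fit. The procedure was tested on simulated data. The 10 genes and the pathway and marker lists were chosen with earlier results of these data known. The text names the 10 genes, the gene most like each, the 2 most changed called genes of each pathway list in P15 against P0, and HRAS, MAPK3 and CIC. Some genes of the lists are not reported here. Further genes are named only as not tested, as markers near 0, as overlapping neighbours or where the text says that they were chosen after their values were seen. The planned comparison of protein sequences was not run. The alternatives tried were 3 filters on low values, a pseudocount of 0.1 or of 5, scaling by quantiles or to a common median, no variance trend, pairs of phases alone, both replicate numberings as a block, a 2-fold threshold and each library left out. Coordinates and exon lengths are from GENCODE 44 on GRCh38. Tables were made in Python 3.11.15 with pandas 2.3.3, and figures with matplotlib 3.10.9.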

Additional observations from a re-analysis of the deposited data

Results flagged for a closer look

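Dixon's test at the 95% level set 1 library apart from the rest of its phase in 2 of the 40 sets of values (10 genes in 4 phases), and chance does so in about 1 of 20 sets, here 2. SPRY2 was 7.12 in replicate 3 of P15, above the others with a gap of 0.86 of the range of the phase, and SPRED1 was 6.48 in replicate 2 of P3, below the others with a gap of 0.92 of the range. Replicate 2 of P3 is also the library whose title number S lies apart from those of its phase, and without it the SPRED1 difference between P3 and P0 was 0.02 (adjusted p = 0.67).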

How the results depend on the processing

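Of the 60 differences (10 genes in 6 comparisons), 52 kept their direction and their side of the threshold under each of the 28 refits, and 8 did not. Those 8 are differences of 0.11 or less in size, of SPRED2 (P7 and P15 against P0, P15 against P7), SPRED1 (P3 against P0), ETV1 and ETV4 (P15 against P0), DUSP6 and SPRY4 (P7 against P3). Signs changed for 4 differences that were not called. ETV1 in P15 against P0 was -0.0172 with quantile normalization and -0.02 with a shift to the same median, and -0.0433 to 0.037 with 1 library left out. SPRED1 in P3 against P0 was 0.0025 with that shift and -0.025 to 0.019 with libraries left out, also 0.019 without both libraries of a separate S number. SPRED2 in P15 against P7 was -0.0075 with that shift and -0.0033 to 0.06 with 1 library left out, and DUSP6 in P7 against P3 was -0.0017 to 0.045. Calls that changed were SPRED2 in P7 against P0, which passed at 0.08 with quantile normalization, 0.10 with the shift and 0.08 without replicate 3 of P15, ETV4 in P15 against P0, which passed at -0.09 with the shift, and SPRY4 in P7 against P3, which was lost at -0.08 with quantile normalization. The cause was not tested. Scaling moved the median of all tested genes by at most 0.04 in any comparison.

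With a 2-fold threshold added, the counts of the 10 genes were 1, 1, 5, 2, 5 and 3, and those of the pathway lists 4, 0, 26, 3, 24 and 25 (P3, P7 and P15 against P0, P7 and P15 against P3, P15 against P7), where the adjusted p alone gave 8, 8, 8, 9, 10 and 9 and 46, 41, 56, 42, 57 and 54. Of 24 same-numbered pairs of libraries, 1 correlated above 0.1 (-0.15 to 0.22). Pairs with different numbers were not compared, so this cannot decide whether the replicate numbers pair the libraries. With the replicate block the counts of the 10 genes were 8, 8, 8, 9, 10 and 9. Protein isoforms and phosphorylation were not measured.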
